A study of Mus musculus with 16 samples.

Results

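The genes of thyroid hormone handling were followed in the mouse hypothalamus across 4 treatment groups. They were chosen by symbol, as 7 named genes that bind, carry, convert or sense the hormone: Ttr, Crym, Slco1c1, Dio2, Dio3, Thra and Thrb. Of these, 6 were measured among 15983 genes in the table of OLZ+MINO, OLZ and CTRL mice, and the same 6 among 16005 genes in the table of MINO and CTRL mice. Dio3, the deiodinase that inactivates thyroid hormone, is in neither table and is not analysed here. Each gene in both tables had a mean of at least 9.5 scaled counts.

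Female C57BL6/J mice had eaten a diet with 45% of its energy from fat for 12 weeks, from 10 weeks of age, and each library came from the dissected hypothalamus of 1 mouse. OLZ+MINO mice received olanzapine at 54 mg per kg of diet and minocycline at 0.6 mg/ml in drinking water. OLZ mice received the same olanzapine diet, MINO mice the same minocycline, and CTRL mice neither drug, with 4 mice in each group. Olanzapine is an antipsychotic that causes weight gain, and minocycline is a tetracycline antibiotic that the study tested as a partner drug against it. The study used only females for these libraries, so the values say nothing of males.

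Thyroxine, the main secreted thyroid hormone, reaches the brain bound to proteins such as transthyretin, the product of Ttr. It crosses into the brain through transporters, among them OATP1C1, the product of Slco1c1. In astrocytes and in tanycytes, which are glial cells of the ventricle wall next to the arcuate nucleus, the deiodinase made by Dio2 converts it to triiodothyronine, the form that binds the nuclear receptors encoded by Thra and Thrb. Crym encodes mu-crystallin, which binds triiodothyronine in the cytosol. In the hypothalamus the hormone restrains the neurons of the paraventricular nucleus that make thyrotropin-releasing hormone.

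Here 3 promoters are shown because their genes, Dio2 and Thrb, were among those with higher levels in OLZ mice. Of the 7 genes, 4 (Slco1c1, Dio2, Dio3 and Thrb) have a promoter in the RefSeq table used, which is on build GRCm38.p6. Each entry spans 250 bases before to 50 bases after a start, and the stretches printed run 5′ to 3′ up to the start or to the first annotated exon, whichever comes first. Capitals mark matches, on either strand, to 5 motifs: AGGTCA (the half-site bound by thyroid hormone receptors and other nuclear receptors), TGACGTCA (the cAMP response element), CCAAT (the NF-Y box), TCAAGGTCA (an Nr5a2 site, which contains AGGTCA) and TATAAA (the TATA box). The Dio2 stretch is chr12:90739039-90739288 on the minus strand, and the Thrb stretches are chr14:17660710-17660891 and chr14:17981394-17981528 on the plus strand.
Dio2: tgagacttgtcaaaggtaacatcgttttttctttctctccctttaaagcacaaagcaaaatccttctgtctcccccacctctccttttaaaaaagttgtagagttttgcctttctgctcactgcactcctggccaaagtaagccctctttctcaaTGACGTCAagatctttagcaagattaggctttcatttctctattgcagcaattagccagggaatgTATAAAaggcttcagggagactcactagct
Thrb, first promoter: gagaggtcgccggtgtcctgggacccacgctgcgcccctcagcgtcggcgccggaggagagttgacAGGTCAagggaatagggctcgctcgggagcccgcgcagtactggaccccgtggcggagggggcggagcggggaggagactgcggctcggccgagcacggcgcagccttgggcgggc
Thrb, second promoter: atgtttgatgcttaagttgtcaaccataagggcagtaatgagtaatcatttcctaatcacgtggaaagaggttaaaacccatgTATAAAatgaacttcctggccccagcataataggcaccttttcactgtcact
The whole Dio2 entry held the cAMP response element from base -95 to base -88, counted from the start, and a TATA box from base -30 to base -25. Of 32851 promoters of the same length in the table, 1.79% held TGACGTCA and 13.6% held TATAAA. The first Thrb promoter held 1 AGGTCA, from base -184 to base -179, a motif found in 16.3% of all promoters. The second held only TATAAA from base -167 to base -162, farther from its start than the TATA box of Dio2. CCAAT was in neither gene's entries and in 37.4% of all promoters, and TCAAGGTCA was likewise in neither and in 0.423% of all. These are matches of letters and not evidence of binding.

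Totals of scaled counts, the deposited unit, ran between 8435016 and 9279227 per library in the table of 3 groups and between 8783427 and 9447616 in the other. The 2 tables were scaled separately, and the CTRL libraries, which are in both, differed between them by a factor of 1.0048 to 1.00615. Levels of MINO mice are therefore compared only with CTRL in their own table. The libraries differed in several marker sums. The 6 thalamus markers summed to 4921 in OLZ+MINO mouse 48 and to 1475 in CTRL mouse 11, against 311 to 455 in the other 10 libraries of that table. The 13 tanycyte markers measured summed to 809 to 1073 in OLZ+MINO mice and to 2018 to 3664 in OLZ mice, against 747 to 1149 in CTRL mice, so the OLZ range lay above both. Mitochondrial ribosomal RNA took 10.4% to 11.2% of counts in OLZ+MINO mice and 9.12% to 11.8% in MINO mice, against 7.08% to 8.06% in OLZ mice and 6.24% to 7.87% in CTRL mice.

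Olanzapine against the control diet asks which of these genes differ after long drug exposure. Crym, Dio2 and Thrb were higher in OLZ than in CTRL hypothalamus, by 6.59-fold, 1.93-fold and 1.41-fold on the log2(scaled count + 1) scale, and no OLZ library overlapped a CTRL library for any of them. Slco1c1, Thra and Ttr did not pass the test. The study used a false discovery rate under 0.3 for transcripts changed by olanzapine and corrected by minocycline, and sorted genes by a local rate. Here the test was limma with Benjamini-Hochberg adjustment over all 15983 genes, and a gene was called at an adjusted p under 0.3. At that level 582 genes, 3.64% of those tested, were called, 291 of them higher (1.82%), and 3 of the 6 measured thyroid genes were called higher. No thyroid gene passed an adjusted p under 0.05, which 2 genes of the table did.

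Crym, the cytosolic hormone-binding protein, had 60, 48, 48 and 42 scaled counts in OLZ mice 13, 14, 17 and 19, against 1, 18, 7 and 10 in CTRL mice 3, 4, 5 and 11. The lowest OLZ library stood above the highest CTRL library by more than the whole CTRL range. The means were 49.5 ± 7.55 in OLZ and 9.0 ± 7.07 in CTRL (SD, n = 4 each), a log2 fold change of 2.72 ± 0.75 (SE) with a limma adjusted p of 0.218 and an exact two-sided permutation p of 0.0286, the smallest that 4 against 4 libraries allow. Crym had the fewest reads of the 3 called genes, so counting error matters. The inferred 1 read of CTRL mouse 3 has an exact Poisson 95% interval of 0.0253 to 5.57 reads. The inferred 65 reads of OLZ mouse 13 have one of 50.2 to 82.8. These intervals cover counting error only.

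Dio2, which makes active hormone, had 304, 124, 144 and 147 scaled counts in the OLZ mice, against 85, 82, 73 and 110 in the CTRL mice. OLZ mouse 13 was far above the other 3 OLZ mice, and OLZ mouse 14 stood nearest to the CTRL range. The means were 180 ± 83.5 in OLZ and 87.5 ± 15.8 in CTRL (SD, n = 4 each), with a log2 fold change of 0.95 ± 0.32 (SE), a limma adjusted p of 0.291 and an exact permutation p of 0.0286. Dio2 was thus just inside the threshold, and under quantile normalization it was not called (0.92, adjusted p = 0.316).

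Thrb, the receptor gene whose product mediates hormone feedback in the hypothalamus, had 680, 584, 517 and 470 scaled counts in the OLZ mice, against 372, 445, 444 and 334 in the CTRL mice. The gap between the groups, 470 in OLZ mouse 19 against 445 in CTRL mouse 4, was narrower than the spread within either. The log2 fold change was 0.49 ± 0.16 (SE), with a limma adjusted p of 0.262 and an exact permutation p of 0.0286. Across the table, groups did not overlap with OLZ higher for 582 genes, which is 3.64% of those tested.

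Most of these calls did not hold when 1 library was left out. All 3 were lost without CTRL mouse 3 (limma adjusted p of 0.436 for Crym, 0.465 for Dio2 and 0.463 for Thrb), CTRL mouse 11 (0.406, 0.483 and 0.550 in the same order), OLZ mouse 13 (0.543, 0.646 and 0.603) or OLZ mouse 14 (0.382, 0.394 and 0.460). Without OLZ mouse 19 the adjusted p was 0.322 for Crym, 0.382 for Dio2 and 0.3005 for Thrb, and Dio2 alone was lost without CTRL mouse 4 (0.332) or CTRL mouse 5 (0.335). The direction held in every one of these fits, with log2 fold changes of 2.08 to 3.16 for Crym, 0.67 to 1.10 for Dio2 and 0.40 to 0.57 for Thrb.

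The other 3 measured genes gave no call. Thra, the receptor gene expressed most widely in neurons, had 2494, 2441, 2486 and 2441 scaled counts in the OLZ mice, against 2801, 2344, 2554 and 2544 in the CTRL mice. The OLZ libraries lay inside the CTRL range, and the 95% interval of the log2 fold change, -0.20 to 0.09, was the narrowest of the 6. Thra shares 263 exon bases with Nr1d1 (Rev-erbα, a repressor of the circadian clock) on the opposite strand. No strand setting is stated for the counting, so reads in that stretch cannot be assigned. Nr1d1 did not pass the test (log2 fold change of 0.22 ± 0.13, SE, limma adjusted p = 0.536).

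Slco1c1, the thyroxine transporter of brain endothelium and astrocytes, had 155, 135, 106 and 117 scaled counts in the OLZ mice, against 95, 267, 174 and 193 in the CTRL mice. Each OLZ library was below the CTRL median, but CTRL mouse 3 was lower than all of them. The log2 fold change was -0.43 ± 0.24 (SE, limma adjusted p = 0.515). Slco1c1 tracked the endothelial junction gene Cldn5, with a Pearson r of 0.90 over the 12 libraries. Cldn5 stood at 129 in CTRL mouse 4, where Slco1c1 was highest, and at 30 in CTRL mouse 3, where it was lowest.

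Ttr had 16, 26, 6 and 8 scaled counts in the OLZ mice, against 13, 16, 4 and 48 in the CTRL mice, with wide overlap (log2 fold change of -0.25 ± 0.77, SE, limma adjusted p = 0.933). The sign of this change turned without CTRL mouse 11 (0.30) and without OLZ mouse 17 (0.046). In the brain Ttr marks the choroid plexus above other tissues. Of 15 choroid plexus markers, 9 were measured, and the defining genes Folr1, Aqp1, Slc4a5, Kcne2, Cldn2 and Tmem72 are not in the tables and are not analysed here.

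**Figure D1:**
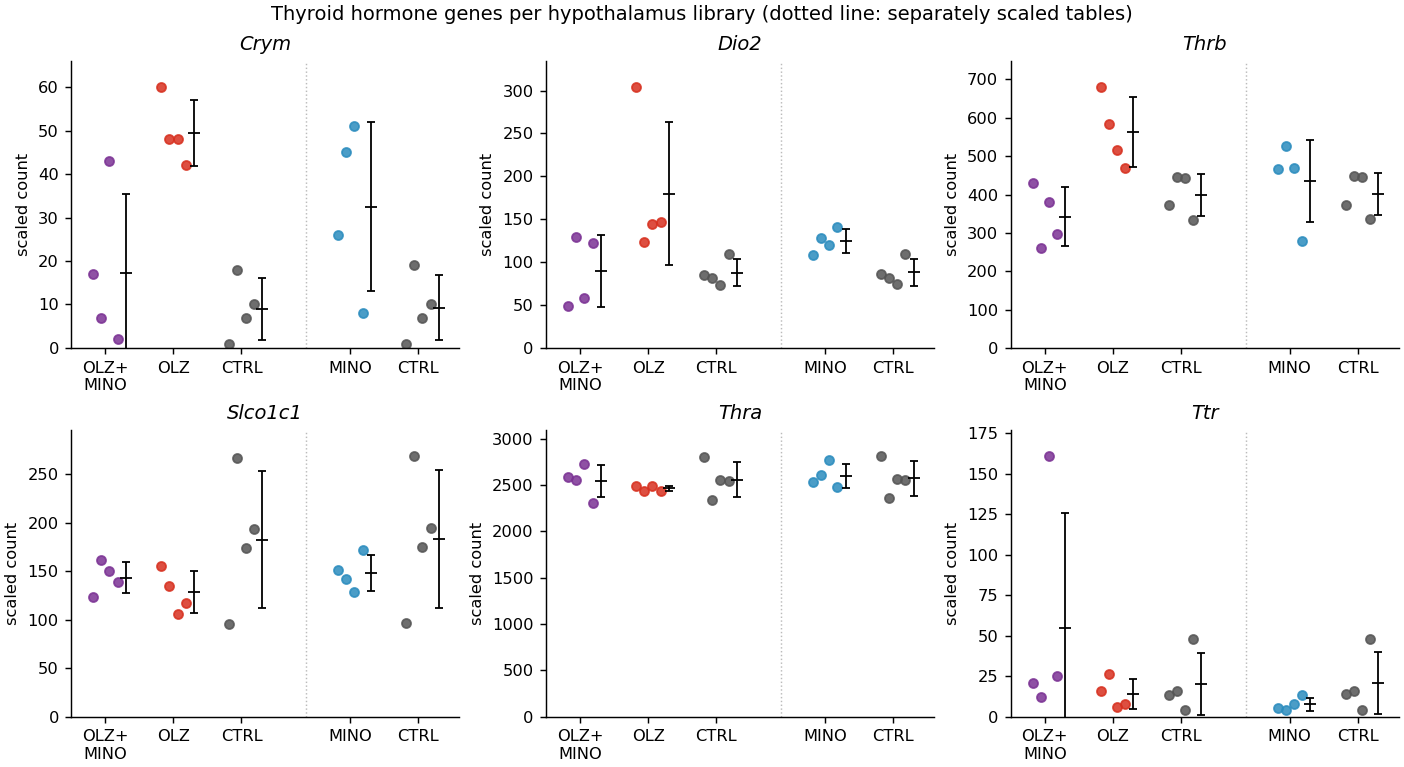
Scaled counts (y axis, linear, from 0) of the 6 measured thyroid hormone genes in each library. Points are mice, with the mean and SD (n = 4) as a bar to the right of each group, cut at 0, and the dotted line separates tables that were scaled separately. Crym, Dio2 and Thrb in OLZ mice lay above every CTRL mouse, Thra varied little, and Ttr reached 161 in OLZ+MINO mouse 47 only.

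Adding minocycline to olanzapine asks whether the drug partner moves the same genes. Thrb, Dio2 and Crym fell in OLZ+MINO mice relative to OLZ mice, to 0.602, 0.490 and 0.234 times the OLZ level on the log2(scaled count + 1) scale, and the other 3 did not pass the test. Of 15983 genes, 1974 (12.4%) were called in this comparison, 1016 of them lower (6.36%), beside 3 of the 6 thyroid genes, all lower. This comparison and the one before it share the OLZ libraries, so a high OLZ value enters both with opposite signs.

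Thrb stood at 430, 261, 380 and 296 scaled counts in OLZ+MINO mice 37, 40, 47 and 48, against 680, 584, 517 and 470 in the OLZ mice. The groups did not overlap, as for 672 genes lower in OLZ+MINO (4.2% of those tested). The log2 fold change was -0.73 ± 0.16 (SE), with a limma adjusted p of 0.0632 and an exact permutation p of 0.0286. This was the firmest of the members' calls, since it was kept without each of the 12 libraries in turn, with adjusted p between 0.0277 and 0.256.

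Dio2 had 49, 129, 58 and 122 scaled counts in the OLZ+MINO mice, against 304, 124, 144 and 147 in the OLZ mice. The OLZ+MINO libraries split into a low pair, mice 37 and 47, and a pair that reached the lower OLZ values. The log2 fold change was -1.03 ± 0.32 (SE, limma adjusted p = 0.160, exact permutation p = 0.0571), and the call was lost without OLZ mouse 13 (-0.75, adjusted p = 0.435).

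Crym had 17, 7, 43 and 2 scaled counts in the OLZ+MINO mice, against 60, 48, 48 and 42 in the OLZ mice. OLZ+MINO mouse 47 was within the OLZ range and the other 3 were far below it. The log2 fold change was -2.09 ± 0.75 (SE, limma adjusted p = 0.212, exact permutation p = 0.0571). The Crym call was lost without OLZ mouse 13 (adjusted p = 0.454), OLZ mouse 14 (0.337), OLZ+MINO mouse 40 (0.388) or OLZ+MINO mouse 48 (0.464), the library with the most thalamus RNA.

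Slco1c1, Thra and Ttr were not called. Slco1c1 had 123, 161, 150 and 139 scaled counts in the OLZ+MINO mice, inside the span set by the OLZ and CTRL mice, with a log2 fold change of 0.17 ± 0.24 (SE) against OLZ. Thra had 2583, 2559, 2729 and 2307, with a log2 fold change of 0.04 ± 0.07 (SE), whose sign turned under quantile normalization (-0.00058). Ttr had 21, 12, 161 and 25, so the log2 fold change of 1.35 ± 0.77 (SE, limma adjusted p = 0.433) leaned on mouse 47, and without it was 0.58. In OLZ+MINO mouse 47 the 9 choroid plexus markers summed to 1084, where the other 3 OLZ+MINO mice had 650 to 1138, the OLZ mice 1268 to 1550 and the CTRL mice 748 to 1230. Among them Kl, which choroid plexus cells express strongly, was at 122 there against 33 to 73 in the rest of the group. Clic6 (261), Calml4 (32), F5 (12) and Col8a1 (59) were also highest of the group in that mouse. Sostdc1 was at 12 against 9 to 34 and Kcnj13 at 11 against 12 to 25. Otx2 (20) and Prlr (555 of the 1084) were likewise not highest there. In OLZ+MINO against OLZ, 1 of the 9 rose and 4 fell, beside 5.99% of all genes called higher and 6.36% called lower.

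Olanzapine with minocycline against the control diet showed no called thyroid gene, where 4 genes of 15983 (0.025%) were called and 989 (6.19%) had an unadjusted p under 0.05. The log2 fold changes were -0.24 ± 0.16 for Thrb, -0.08 ± 0.32 for Dio2, 0.63 ± 0.75 for Crym and -0.26 ± 0.24 for Slco1c1 (SE), and all 4 had overlapping groups. The 95% interval ran from -0.57 to 0.09 for Thrb, from -0.76 to 0.61 for Dio2 and from -0.96 to 2.22 for Crym. With intervals this wide, the missed threshold does not show that OLZ+MINO mice were at the CTRL level.

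Minocycline alone against the control diet had no called gene among 16005 tested (0%), with limma, while 1026 genes (6.41%) had an unadjusted p under 0.05. Crym had 26, 45, 51 and 8 scaled counts in MINO mice 26, 31, 35 and 36, against 1, 19, 7 and 10 in the CTRL mice. MINO mice 26, 31 and 35 were above every CTRL mouse and mouse 36 was within the CTRL range (log2 fold change of 1.84 ± 0.73, SE, limma adjusted p = 0.768, exact permutation p = 0.0857).

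Dio2 had 108, 128, 120 and 141 scaled counts in the MINO mice, against 86, 82, 74 and 110 in the CTRL mice. Each MINO library but mouse 26 was above all CTRL libraries, and the log2 fold change was 0.50 ± 0.16 (SE, limma unadjusted p = 0.00922, adjusted p = 0.768). Thrb had 466, 527, 468 and 280, against 374, 448, 446 and 336 in CTRL (log2 fold change of 0.09 ± 0.17, SE), with a sign that turned without MINO mouse 31 (-0.015). Ttr was sparse, at 5, 4, 8 and 13 against 14, 16, 4 and 48 in CTRL (-1.01 ± 0.66), Slco1c1 had 151, 142, 128 and 172 against 96, 269, 175 and 194 (-0.22 ± 0.25), and Thra had 2539, 2607, 2777 and 2476 against 2818, 2359, 2566 and 2559 (0.02 ± 0.07).

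**Figure D2:**
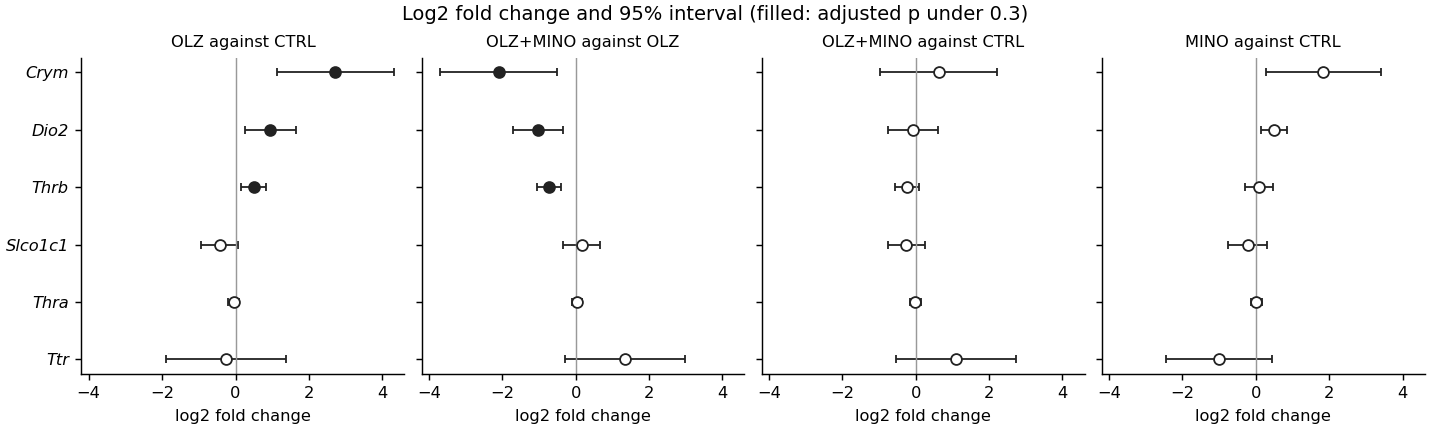
Log2 fold changes (x axis, on the log2(scaled count + 1) scale) of the 6 genes in each comparison, with 95% intervals from limma. Filled points passed an adjusted p under 0.3. Crym, Dio2 and Thrb lay above 0 in OLZ against CTRL and below 0 in OLZ+MINO against OLZ, and no point is filled in the other comparisons.

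The 3 called genes stood beside a tanycyte signal. Of 13 tanycyte markers measured, 7 rose and none fell in OLZ mice against CTRL mice, with a median log2 fold change of 1.56 beside 0.00 over all genes, and 8 fell in OLZ+MINO mice against OLZ mice (median -1.43). Over all genes, 1.82% were called higher in the first comparison and 6.36% lower in the second. Among the markers that rose, Fndc3c1 had a mean of 4.0 in CTRL and 92.25 in OLZ. Scn7a, a sodium channel gene of tanycytes, had 1077, 670, 699 and 686 scaled counts in the OLZ mice, against 298, 300, 209 and 223 in the CTRL mice. Of 9 arcuate neuron markers measured, 6 rose in OLZ mice against CTRL mice (summed to 2160 to 3076 in OLZ and 551 to 1702 in CTRL). Among these, Agrp had means of 6.75 in CTRL and 5.75 in OLZ+MINO, and Corin 9.0 and 6.25. Both stood at 32.75 in OLZ, and no measured gene had an overall mean under 9.5. Agrp and Corin were thus measured only through their OLZ values, so the counts of markers that rose are partly set by which genes were kept. In bulk tissue, more cells of a type and more RNA per cell cannot be told apart. Astrocytes also express Dio2 and Slco1c1, and of 10 astrocyte markers 1 rose in OLZ mice, with sums of 31435 to 39034 in OLZ mice and 32183 to 38459 in CTRL mice.

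By library, high Crym mostly went with a high tanycyte sum, but the order did not hold within the OLZ or CTRL group. OLZ mouse 14 had the lowest sum of its group (2018) with Crym at 48, and mouse 19 a sum of 2378 with Crym at 42. CTRL mouse 11 had a sum of 747 with Crym at 10, and mouse 5 a sum of 1076 with Crym at 7. OLZ mouse 13 had the highest tanycyte sum (3664) and the highest Crym, Dio2 and Thrb of its group. Among MINO mice, 31 and 35 had tanycyte sums of 2342 and 2681 with Crym at 45 and 51. MINO mice 26 and 36 had sums of 1185 and 1063 with Crym at 26 and 8. The 10 arcuate neuron markers measured in the MINO and CTRL table ordered these mice alike. They summed to 2206 and 2432 in mice 31 and 35, and to 1287 and 926 in mice 26 and 36. OLZ+MINO mouse 47 had Crym within the OLZ range, at 43, with a tanycyte sum of 1073. Dio2 followed the tanycyte sum less closely. OLZ+MINO mice 40 and 48 had 129 and 122 scaled counts of Dio2 with tanycyte sums of 809 and 848. The 4 MINO mice held similar Dio2 over sums of 1063 to 2681. The part of tanycyte or arcuate neuron content in the differences of Crym, Dio2 and Thrb was not tested.

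**Figure D3:**
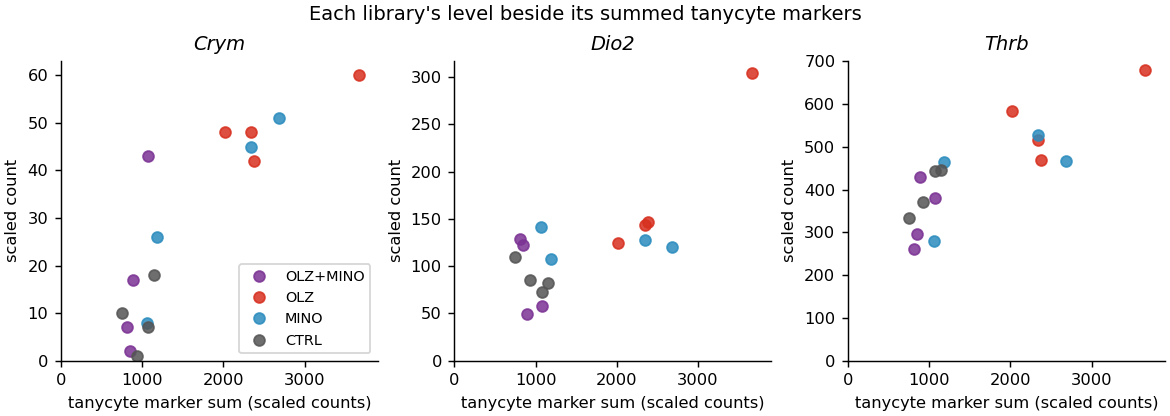
Scaled count of each gene (y axis) against the sum of 13 tanycyte markers in the same library (x axis, scaled counts), 1 point per mouse, coloured by group, with MINO values from the separately scaled table. Crym was at 42 or more in the libraries with sums of 2018 or more, and Dio2 spread from 49 to 141 scaled counts among libraries with sums of at most 1185.

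The libraries rich in thalamus markers were also left out. Removing CTRL mouse 11 and OLZ+MINO mouse 48 together, an alternative chosen after the data were seen, kept Crym called in OLZ against CTRL (log2 fold change of 2.90, limma adjusted p = 0.178) but not Dio2 (1.07, 0.311) or Thrb (0.41, 0.409). For OLZ+MINO against OLZ it kept Thrb (-0.67, 0.106) and Dio2 (-1.22, 0.162) and lost Crym (-1.44, 0.443).

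Among other thyroid hormone transporters, Slco1a4, a thyroxine carrier of endothelium, had a log2 fold change of -0.49 ± 0.17 (SE) and a limma adjusted p of 0.301 in OLZ against CTRL, just outside the threshold.

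Of the pituitary-thyroid axis, 7 genes of 9 were measured. Tshr, the thyrotropin receptor, which tanycytes express, was the one called in OLZ against CTRL, where 3.64% of all genes were called. Tshr had 8, 2, 11 and 4 scaled counts in the OLZ+MINO mice and 96, 43, 40 and 39 in the OLZ mice, against 3, 9, 14 and 10 in the CTRL mice. The OLZ group stood clear of both. Tshr means were 9.0 in CTRL and 6.25 in OLZ+MINO, against 54.5 in OLZ. No measured gene had an overall mean under 9.5, so Tshr was measured only through its OLZ values. The separation of Tshr is thus partly set by which genes were kept. Its log2 fold change was 2.51 ± 0.54 in OLZ against CTRL (SE, limma adjusted p = 0.116) and -3.02 ± 0.54 in OLZ+MINO against OLZ (adjusted p = 0.0425). The first call was lost without CTRL mouse 3 (2.12, adjusted p = 0.332), OLZ mouse 13 (2.21, 0.467) or OLZ mouse 14 (2.59, 0.3004), and the second was kept without each library in turn. Pgpep1, a peptidase that can cleave thyrotropin-releasing hormone, fell in OLZ+MINO against OLZ (-0.60 ± 0.16, SE, adjusted p = 0.121), a call lost without OLZ mouse 13 (-0.55, adjusted p = 0.340).

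Trh, the releasing hormone that thyroid hormone restrains, had 682, 99, 476 and 30 scaled counts in the OLZ+MINO mice and 255, 434, 305 and 504 in the OLZ mice, against 754, 523, 803 and 155 in the CTRL mice. It was not called in any comparison (log2 fold change of -0.38 ± 0.76, SE, in OLZ against CTRL). CTRL mouse 11, OLZ+MINO mouse 40 and OLZ+MINO mouse 48 had the lowest Trh and also the lowest sums of the 5 paraventricular nucleus markers, which include Trh, at 657, 765 and 270 against 1866 to 5032 in the other 9 libraries. The part of dissection in the Trh values was not tested.

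Genes that triiodothyronine is known to raise in brain gave a mixed picture, with 2 of 11 measured called in OLZ against CTRL, both higher. Over all genes 1.82% were called higher in that comparison. Thrsp, a lipogenic response gene, had 72, 72, 59 and 79 scaled counts in the OLZ+MINO mice and 111, 116, 140 and 98 in the OLZ mice, against 62, 87, 45 and 101 in the CTRL mice. One OLZ library was within the CTRL range, and all 4 lay above the OLZ+MINO mice. Its log2 fold change was 0.70 ± 0.22 in OLZ against CTRL (SE, limma adjusted p = 0.265) and -0.71 ± 0.22 in OLZ+MINO against OLZ (adjusted p = 0.166). Nrgn, the neuronal protein neurogranin, had 310, 287, 283 and 267 in the OLZ mice, against 198, 232, 226 and 154 in the CTRL mice (0.52 ± 0.16, SE, adjusted p = 0.243).

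The classic responders Klf9 and Hr did not pass. Klf9, a transcription factor gene with a receptor site at its locus, had 590, 667, 612 and 621 scaled counts in the OLZ mice, against 761, 554, 576 and 661 in the CTRL mice (-0.03 ± 0.12, SE). Hr, a corepressor gene, had 211, 256, 238 and 239 in the OLZ mice, against 275, 275, 183 and 247 in the CTRL mice (-0.04 ± 0.19, SE). For both the OLZ libraries lay inside the CTRL range. The median over the 11 genes was -0.10 in OLZ against CTRL and 0.16 in OLZ+MINO against OLZ, where Mbp, the myelin basic protein gene, rose (0.55 ± 0.20, SE, limma adjusted p = 0.214). That call was lost without OLZ mouse 13 (0.490), OLZ mouse 14 (0.362), OLZ+MINO mouse 40 (0.421) or OLZ+MINO mouse 48 (0.449). Mbp is also an oligodendrocyte gene, and of 8 oligodendrocyte markers 4 rose in that comparison, with sums of 19486 to 28788 in OLZ+MINO and 14626 to 19186 in OLZ. Over all genes 5.99% were called higher there.

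The Nrgn call was lost without CTRL mouse 3 (limma adjusted p = 0.440), CTRL mouse 11 (0.536), OLZ mouse 13 (0.571), OLZ mouse 14 (0.427) or OLZ mouse 19 (0.354). The Thrsp call in OLZ against CTRL was kept without CTRL mouse 4 and lost without each of the other 7 compared libraries, with adjusted p from 0.323 to 0.551. Under quantile normalization the Thrsp call in OLZ against CTRL was also lost (0.307). Its call in OLZ+MINO against OLZ was lost without OLZ mouse 13 (0.372).

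Of 16 receptor partners and coregulators, all measured, none was called in OLZ against CTRL. With minocycline added to olanzapine the retinoid X receptor gene Rxrg, a dimer partner of the thyroid receptors, fell (-0.90 ± 0.33, SE, limma adjusted p = 0.216), and the mediator subunit gene Med1 rose (0.20 ± 0.07, SE, adjusted p = 0.232). Rxrg had 105, 69, 170 and 44 scaled counts in the OLZ+MINO mice, against 201, 161, 118 and 179 in the OLZ mice. The groups overlapped, with mouse 48 lowest. The Rxrg call was lost without OLZ mouse 13 (adjusted p = 0.482), OLZ mouse 14 (0.345), OLZ mouse 19 (0.320), OLZ+MINO mouse 40 (0.405) or OLZ+MINO mouse 48 (0.476). The Med1 call was lost without any 1 of the OLZ mice 13 (0.406), 14 (0.371), 17 (0.303) and 19 (0.338) or without OLZ+MINO mouse 48 (0.509).

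**Figure D4:**
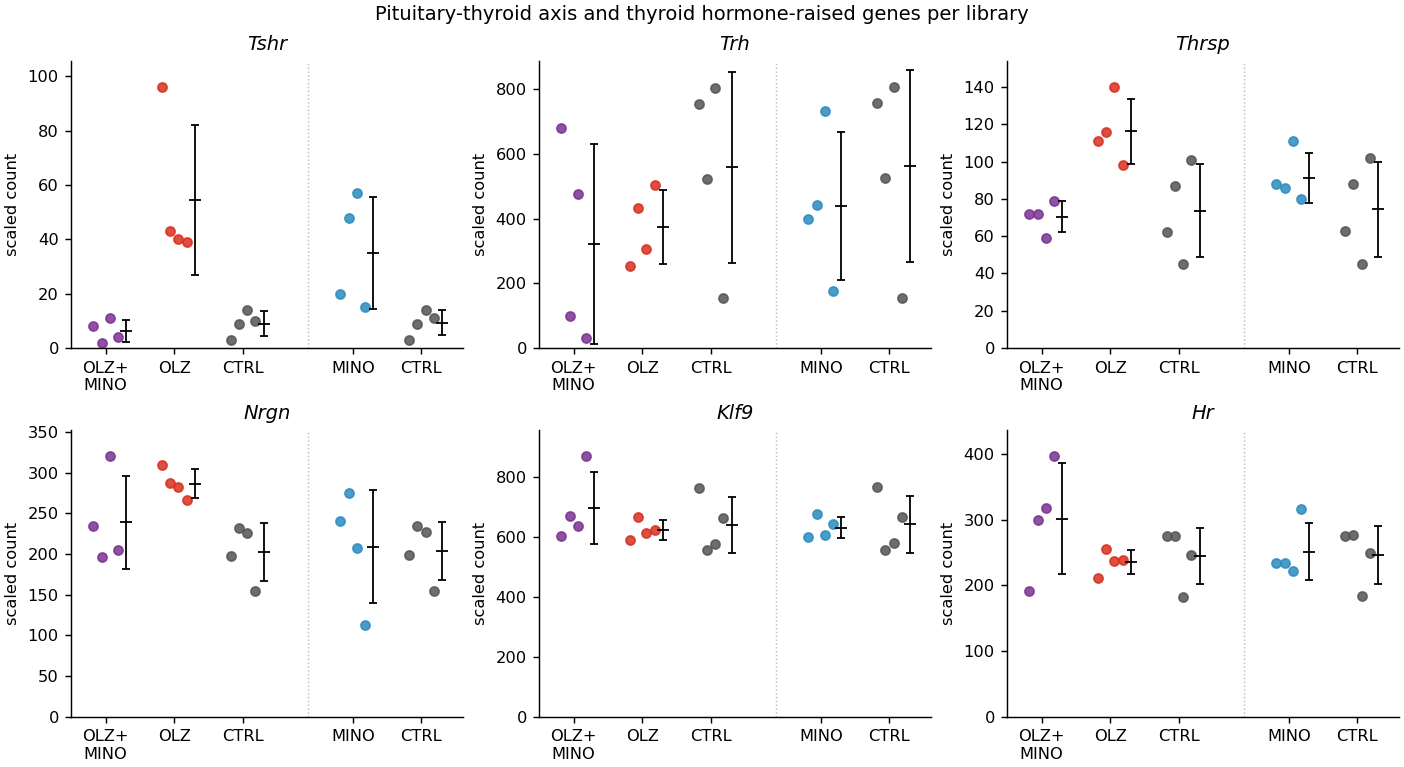
Scaled counts (y axis, linear, from 0) of 6 genes outside the named set in each library, with the mean and SD (n = 4) beside the points and separately scaled tables on either side of the dotted line. Tshr in OLZ mice lay above every OLZ+MINO and CTRL mouse, Klf9 and Hr of OLZ mice lay inside the CTRL range, and Trh varied within each group.

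Set on a common scale per kilobase of exon, Thra led in every group. In OLZ+MINO mice the levels per kilobase were 551 ± 38.0 for Thra, 46.2 ± 10.4 for Thrb, 46.2 ± 59.9 for Ttr, 27.6 ± 3.13 for Slco1c1, 15.4 ± 7.19 for Dio2 and 5.09 ± 5.39 for Crym (scaled counts per kilobase, SD, n = 4). In OLZ mice the levels per kilobase were 534 ± 6.17 for Thra, 76.0 ± 12.3 for Thrb, 30.9 ± 14.4 for Dio2, 24.7 ± 4.14 for Slco1c1, 14.6 ± 2.23 for Crym and 11.8 ± 7.67 for Ttr. In CTRL mice they were 555 ± 40.6 for Thra, 53.9 ± 7.44 for Thrb, 35.1 ± 13.6 for Slco1c1, 17.1 ± 16.2 for Ttr, 15.05 ± 2.72 for Dio2 and 2.65 ± 2.09 for Crym. In MINO mice, on the scale of their own table, they were 563 ± 28.1 for Thra, 58.8 ± 14.5 for Thrb, 28.6 ± 3.56 for Slco1c1, 21.4 ± 2.38 for Dio2, 9.58 ± 5.75 for Crym and 6.32 ± 3.41 for Ttr. Thra stood apart from the rest beyond the spread in each group. Neighbours whose ranges of mean ± SD overlapped were Thrb, Ttr and Slco1c1 in OLZ+MINO, Dio2 and Crym in OLZ+MINO, Dio2 and Slco1c1 in OLZ, Crym and Ttr in OLZ and in MINO, and Thrb, Slco1c1, Ttr and Dio2 in CTRL.

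The genes whose pattern over the 12 libraries was most like each member's were ranked by Pearson r of log2 values among 11121 or 11122 genes, as a description of libraries that share groups and depth. Crym was most like Fam179a (0.93), Plxnb1 (0.90) and Rrad (0.89). Dio2 was most like Golm1 (0.90), Mfsd1 (0.89) and Abca8a (0.84). Thrb had the closest companions, Dbpht2, Spint2 and Itm2c, each at 0.96. Slco1c1 was most like Rpp14 (0.91), Cldn5 (0.90) and Sppl2b (0.88). Thra was most like Zcchc17 (0.92), and Ttr was most like Pard6a and Ttc5, each at 0.81. The 8 libraries of the other table share the CTRL mice with these, so they are not a separate check. There the r of Slco1c1 was 0.97 with Cldn5 and 0.74 with Rpp14. The first-named gene had an r there of 0.86 for Crym, 0.68 for Dio2 and 0.85 for Thrb. For Thra it was 0.52 and for Ttr, with Pard6a, 0.23.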

How the data were processed

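RNA was extracted with TRIzol from the hypothalamus of 16 mice, 4 per group, and sequenced from TruSeq libraries. Per the submitters' processing notes, reads were mapped with Bowtie2, counted per gene with RSEM and analysed with limma on build mm9. The deposited values are a signal per gene, namely counts that the authors had scaled per library (inferred factors of 0.9205 to 1.104 and 0.9085 to 1.1015) and rounded to whole numbers. The sources used here state neither how the factors were made, nor the versions, nor a strand setting. The inferred depth was 7996000 to 9740000 reads per library, so a gene at 10 scaled counts rests on about as many reads.

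Members were matched by symbol. Values were analysed as log2(value + 1) with limma 3.58.1 in R 4.3.3, with an intensity trend, a minimum group mean of 1, 1 fit per table and Benjamini-Hochberg adjustment over all its genes. Genes were called at an adjusted p under 0.3. The script was tested on simulated data. Exact two-sided permutation tests (70 splits of 4 against 4) were run beside it with Python 3.11.15, pandas 2.3.3, numpy 2.4.6 and scipy 1.17.1. A sheet that repeats some rows of the MINO table, with no member among them, was not used, nor were the group means, fold changes and false discovery rates of the authors' own comparisons. Some genes of the pathway lists are not reported here. Count models were not applied, as the values are scaled. Named genes were the members, the 3 genes most like each (mean of at least 50 scaled counts), and genes of the pathway and marker lists where called or overlapping a member. A few uncalled list genes (Trh, Klf9, Hr, Slco1a4, Cga, Sostdc1, Kcnj13, Calml4 and Col8a1) were named in addition. The members and lists were chosen with earlier results of these data known. Markers, exon lengths and overlaps used GENCODE on GRCm38, with no coordinate tied to the files. Libraries are separate mice. The alternatives tried are other pseudocounts, filters, scalings, weights, thresholds and subsets of libraries.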

Additional observations from a re-analysis of the deposited data

Results flagged for a closer look

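In 24 sets of 4 mice (6 genes in 4 groups), 2 held a mouse whose distance from the nearest other, as a share of the whole range, passed Dixon's 95% critical value, where chance passes about 1 in 20 sets. Dio2 stood at 304 scaled counts in OLZ mouse 13 (share of 0.872), which also had the highest tanycyte marker sum of all libraries. Ttr stood at 161 scaled counts in OLZ+MINO mouse 47 (share of 0.913), and the next library of its group was at 25. The inferred 168 reads of mouse 47 have an exact Poisson 95% interval of 143.6 to 195.4. Whether tissue content had a part in either value was not tested.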

How the results depend on the processing

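Calls in these tables depended on the settings more than the fold changes did, and the causes were not tested. In OLZ against CTRL, 582 genes and 3 members were called. This became 2 genes and 0 members at an adjusted p under 0.05, 193 genes and 0 members with no intensity trend, 507 genes and 2 members under quantile normalization (Dio2 lost), 875 genes when scaled to the total without mitochondrial ribosomal RNA, 1652 with array quality weights, 1559 with only the compared groups, and 206 genes and 1 member without both thalamus-rich libraries (an alternative added after the data were seen). Leaving out 1 library gave 2 to 1470 genes and 0 to 3 members. In OLZ+MINO against OLZ, 1974 genes and 3 members were called. This became 54 genes and 0 members under 0.05, 1023 genes with no trend (Crym lost, adjusted p = 0.321) and 783 without both thalamus-rich libraries (Crym lost, 0.443), and leaving out 1 library gave 187 to 2834 genes and 1 to 3 members. In OLZ+MINO against CTRL, 4 genes and no members were called. This became 0 genes under 0.05, 21 without mitochondrial ribosomal RNA, 15 with no trend, 0 with array quality weights, 0 with only the compared groups and 2 without both thalamus-rich libraries, with 0 to 4 on leaving out 1 library. In MINO against CTRL it was 0 to 3 genes on leaving out 1 library.

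Directions of Crym, Dio2 and Thrb held under every alternative in OLZ against CTRL and in OLZ+MINO against OLZ. Calls of list genes lost with no trend, by adjusted p, were Nrgn (0.350), Thrsp (0.344) and Sepp1 (0.420) in OLZ against CTRL and Rxrg (0.339), Med1 (0.309) and Mbp (0.353) in OLZ+MINO against OLZ. Those lost without both thalamus-rich libraries were Nrgn (0.399), Sepp1 (0.452), Rxrg (0.426), Med1 (0.515) and Mbp (0.312). Sign changes were confined to log2 fold changes that were not called. Thra turned under quantile normalization to 0.0081 in OLZ against CTRL, -0.00058 in OLZ+MINO against OLZ and 0.0075 in OLZ+MINO against CTRL. Without mitochondrial ribosomal RNA it turned to 0.0040 in OLZ against CTRL and 0.017 in OLZ+MINO against CTRL, where it was 0.015 with array quality weights and 0.035 without both thalamus-rich libraries. Ttr in OLZ against CTRL turned to 0.30 without those libraries. On leaving out 1 library, Ttr ran from -0.80 to 0.30 in OLZ against CTRL. In OLZ+MINO against CTRL, Crym ran from -0.016 to 1.28, Dio2 from -0.29 to 0.16 and Thra from -0.050 to 0.037, and in MINO against CTRL Thra ran from -0.026 to 0.059 and Thrb from -0.015 to 0.29. No paired analysis was possible because the groups share no mouse numbers. Count models planned for unscaled counts were not run. Crym had an inferred 1 to 65 reads per library and Ttr 4 to 168, so counting error is widest for these genes at the low end.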

Other observations

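The selenoprotein synthesis list, which holds the machinery that the deiodinases need for their selenocysteine, had 11 genes measured. In OLZ against CTRL it had 1 gene that fell, Sepp1 (selenoprotein P, a selenium carrier), at 1772, 2246, 2102 and 1921 scaled counts in the OLZ mice, against 2965, 2371, 1981 and 2784 in the CTRL mice (log2 fold change of -0.32 ± 0.11, SE, limma adjusted p = 0.292). CTRL mouse 5 was within the OLZ range, and the call was lost without CTRL mouse 3 (0.516), CTRL mouse 11 (0.577), OLZ mouse 13 (0.635), OLZ mouse 14 (0.382), OLZ mouse 19 (0.454) or OLZ+MINO mouse 37 (0.3004), 40 (0.307) or 47 (0.319). It was also lost under quantile normalization (0.346) and when scaled to the total without mitochondrial ribosomal RNA (0.332). Txnrd1 (a selenoprotein reductase gene) fell in OLZ+MINO against OLZ (log2 fold change of -0.30 ± 0.09, SE, limma adjusted p = 0.139), a call lost without OLZ mouse 13 (0.373) or OLZ+MINO mouse 40 (0.321).

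Cga, the glycoprotein hormone subunit shared by thyrotropin, stood at 0, 3, 8 and 0 scaled counts in the OLZ+MINO mice and 138, 8, 0 and 42 in the OLZ mice, against 2, 0, 0 and 0 in the CTRL mice. Cga was not called in any comparison, and it had 4, 93, 50 and 4 scaled counts in the MINO mice. The pars tuberalis, the part of the pituitary next to the hypothalamus, expresses Cga. Of its list of 10 pars tuberalis and pituitary markers, 5 were measured, and they summed to 43 to 376 in OLZ+MINO mice and 76 to 249 in OLZ mice, against 74 to 320 in CTRL mice. Pou1f1, a pituitary transcription factor gene, was the one called in OLZ against CTRL, where 3.64% of all genes were called. Pou1f1 had 28, 23, 20 and 17 scaled counts in the OLZ+MINO mice and 33, 37, 29 and 26 in the OLZ mice, against 8, 11, 10 and 12 in the CTRL mice. It rose in OLZ against CTRL (log2 fold change of 1.52 ± 0.30, SE, limma adjusted p = 0.0828), a call lost without OLZ mouse 13 (0.383) or OLZ mouse 14 (0.3004). The part of pituitary tissue in these values was not tested.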
